A study of Mus musculus with 18 samples.

Results

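B cell identity genes, 9 in number, were followed across splenic CD4 T cell preparations of 3 genotypes before and after stimulation through the T cell receptor. The genes were Cd79a, Cd79b, Blk, Bank1, Ms4a1, Cr2, Fcer2a, Pax5 and Ebf1, and every probe set annotated to 1 of these symbols alone was taken. This gave 16 probe sets among the 34945 with a single gene symbol, and 9 genes among 18193. The genes Cd79a, Cd79b, Blk, Bank1 and Cr2 had 1 probe set each, while Ms4a1, Fcer2a and Pax5 had 2 each and Ebf1 had 5. CD4 T cells were isolated with magnetic beads from spleens of mice that were 9 to 15 weeks old and of the C57BL/6 background. The groups were stimulated Gli2A Tg, stimulated Gli2R Tg, stimulated WT, resting Gli2A Tg, resting Gli2R Tg and resting WT cells, with 3 arrays in each and 18 in all. Tg stands for transgenic, and Gli2 is a transcription factor through which Hedgehog signals act on genes, of which Gli2A and Gli2R name an activator and a repressor form. Stimulated cells had been held for 6 h with antibodies against CD3 and CD28, and resting cells were used fresh. The labels do not state which promoter drives each transgene, and cells cultured without antibodies were not analysed here, so culture and receptor engagement cannot be told apart in any stimulation effect below.

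B cells recognise antigen through a membrane immunoglobulin that signals by way of the Cd79a and Cd79b chains. Blk is a Src family kinase of this receptor, Bank1 a scaffold protein beneath it, Ms4a1 encodes the surface protein CD20, Cr2 the complement receptor CD21 and Fcer2a the low-affinity IgE receptor CD23. Pax5 and Ebf1 are the transcription factors that commit precursors to the B lineage and keep many of these genes on. A splenic CD4 T cell is not known to build a B cell receptor, and the spleen is rich in B cells. In RNA from whole preparations, fewer cells of a type and less RNA per cell cannot be told apart.

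Levels are given as log2 of the deposited intensity plus 16 after quantile normalization, and the median of all probe sets on this scale was 6.62. Of the 16 member probe sets, 8 were low, meaning that the mean of every group lay under that median, and these included all probe sets of Cr2 and Ebf1. Levels of different probe sets are not on a common scale, so only levels of the same probe set are compared. The labelled cell type was read from 11 CD4 T cell markers, whose mean level per array lay between 11.68 and 11.99 in the stimulated groups and between 12.30 and 13.09 in the resting groups. The lowest of the resting values belonged to resting Gli2A Tg replicate 3, which stood apart from the other resting arrays. Stimulated Gli2A Tg replicate 2 also stood apart, where the signal of beta-actin at the 3' end was 3.0 times that at the 5' end, against at most 1.82 times in the other arrays; the ratio rises when RNA is partly degraded.

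The stretches of DNA around the transcription starts of Bank1, Cd79a and Pax5 are shown because these genes carry the called differences described below, together with Cd79b, which has no entry in the table used. Each runs from 250 bases before to 50 bases after the start in RefSeq (build GRCm38.p6), 5' to 3' on the strand of the gene, and 6 of the 9 genes had an entry. Capitals mark a match to CCCNNGGG, the core that EBF1 binds, to ATGCAAAT, the octamer of POU factors, or to GAGGAA, a box bound by the ETS factor PU.1, on either strand.
Bank1: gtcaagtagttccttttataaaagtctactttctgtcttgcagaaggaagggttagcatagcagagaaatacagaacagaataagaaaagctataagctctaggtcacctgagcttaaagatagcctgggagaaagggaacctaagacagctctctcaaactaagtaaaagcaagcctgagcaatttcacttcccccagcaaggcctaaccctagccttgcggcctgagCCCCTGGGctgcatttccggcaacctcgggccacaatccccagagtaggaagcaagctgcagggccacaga
Cd79a: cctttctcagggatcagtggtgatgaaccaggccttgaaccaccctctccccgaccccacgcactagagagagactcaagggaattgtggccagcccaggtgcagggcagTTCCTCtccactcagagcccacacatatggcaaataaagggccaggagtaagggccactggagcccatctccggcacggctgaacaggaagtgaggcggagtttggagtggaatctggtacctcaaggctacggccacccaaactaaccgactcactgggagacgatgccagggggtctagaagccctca
Pax5: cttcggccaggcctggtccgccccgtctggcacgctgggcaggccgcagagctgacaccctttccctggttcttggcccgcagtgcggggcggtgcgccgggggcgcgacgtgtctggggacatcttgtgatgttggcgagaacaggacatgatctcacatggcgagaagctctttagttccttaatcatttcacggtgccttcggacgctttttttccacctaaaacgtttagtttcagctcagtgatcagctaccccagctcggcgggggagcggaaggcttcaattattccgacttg
The Bank1 window lies at chr3:136326017-136326316 on the minus strand and holds CCCCTGGG at 21 bases before the start. The Cd79a window lies at chr7:24897247-24897546 on the plus strand and holds the reverse complement of GAGGAA at 140 bases before the start. The Pax5 window lies at chr4:44710645-44710944 on the minus strand and holds none of the 3 motifs, which says only that these letters are not in it. No match overlapped another. Over the 9 windows of the 6 genes, CCCNNGGG was found in 1, GAGGAA in 2 and ATGCAAAT in 0, while 13.7%, 28.3% and 1.74% of all 32851 promoter windows held them in the same order.

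The receptor chains were lower after stimulation, Cd79b in all 3 genotypes and Cd79a past the threshold in Gli2R Tg cells. Cd79b read 5.82, 8.09 and 6.92 in stimulated Gli2A Tg arrays and 8.86, 8.87 and 9.56 in resting Gli2A Tg arrays. Its levels were 6.78, 5.96 and 6.02 in stimulated Gli2R Tg cells, against 8.83, 8.80 and 8.73 in resting Gli2R Tg cells. In WT cells it read 7.12, 6.41 and 6.87 after stimulation and 8.52, 8.49 and 8.80 at rest. No stimulated array reached any resting array, and the resting arrays lay within a narrow band in Gli2R Tg and WT cells. The fall was 4.46-fold in Gli2A Tg cells (log2 -2.16 ± 0.42, SE, with an adjusted p of 0.00059 by limma). It was 5.77-fold for Gli2R Tg (-2.53 ± 0.42, adjusted p = 0.000146) and 3.49-fold for WT (-1.80 ± 0.42, adjusted p = 0.00258).

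Cd79a, the partner chain, varied much more between replicates. In stimulated cells it read 4.92, 7.13 and 6.62 in Gli2A Tg, 5.56, 5.13 and 5.51 in Gli2R Tg, and 6.86, 4.58 and 6.16 in WT arrays. In resting cells it read 6.89, 7.28 and 7.95 in Gli2A Tg, 7.53, 7.21 and 6.20 in Gli2R Tg, and 6.57, 5.87 and 6.88 in WT arrays. Stimulated and resting arrays overlapped in Gli2A Tg and WT cells and were apart in Gli2R Tg cells. The difference was -1.58 ± 0.59 in Gli2R Tg cells (2.99-fold lower, adjusted p = 0.0456), -1.15 ± 0.59 in Gli2A Tg cells (adjusted p = 0.143) and -0.57 ± 0.59 in WT cells (adjusted p = 0.492). The Gli2R Tg call was lost when any of its 3 stimulated arrays or resting replicate 1 or 2 was left out, with adjusted p between 0.0756 and 0.153, and with an offset of 1 in the log (4.06-fold, adjusted p = 0.0824). With an offset of 64 it was 1.96-fold (adjusted p = 0.031).

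Bank1, the scaffold of the receptor, had the steepest fall among the 9 genes in each of the 3 genotypes. It read 7.33, 8.90 and 7.41 in stimulated Gli2A Tg arrays, against 10.96, 10.93 and 11.15 in resting Gli2A Tg arrays. In Gli2R Tg cells it read 7.37, 6.82 and 6.38 after stimulation and 10.12, 9.85 and 9.75 at rest. In WT cells it read 7.65, 6.78 and 6.36 after stimulation and 10.61, 10.14 and 9.97 at rest. Every resting array lay above every stimulated array, and the highest stimulated value was that of Gli2A Tg replicate 2. The fall was 8.80-fold in Gli2A Tg cells (log2 -3.14 ± 0.39, adjusted p = 1.06e-05), 8.30-fold for Gli2R Tg (-3.05 ± 0.39, adjusted p = 1.4e-05) and 9.93-fold in WT cells (-3.31 ± 0.39, adjusted p = 6.54e-06). With an offset of 1 the folds were 9.42, 9.45 and 11.3 in the same order. With an offset of 64 they were 7.35, 6.11 and 7.31, and every call was kept. Without resting Gli2A Tg replicate 3 and stimulated Gli2A Tg replicate 2 the Gli2A Tg difference was -3.58 ± 0.38 for Bank1 and -2.50 ± 0.35 for Cd79b, and both stayed called (adjusted p = 1.06e-05 and 9.42e-05).

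Blk, the kinase, was nearly level across the 6 groups. It read 6.88, 7.21 and 7.11 in stimulated Gli2A Tg, 7.13, 7.49 and 7.48 in stimulated Gli2R Tg and 7.22, 7.67 and 7.42 in stimulated WT arrays. At rest it read 7.18, 7.14 and 7.50 in Gli2A Tg, 7.58, 7.33 and 6.94 in Gli2R Tg and 7.62, 7.22 and 7.54 in WT arrays. The groups overlapped in every genotype, and the whole span over 18 arrays was from 6.88 to 7.67. The stimulation difference was -0.21 (95% interval -0.62 to 0.21) in Gli2A Tg, 0.09 (-0.33 to 0.50) in Gli2R Tg and -0.02 (-0.44 to 0.39) in WT cells, so changes of the size seen for Cd79b lie outside these intervals.

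**Figure D1:**
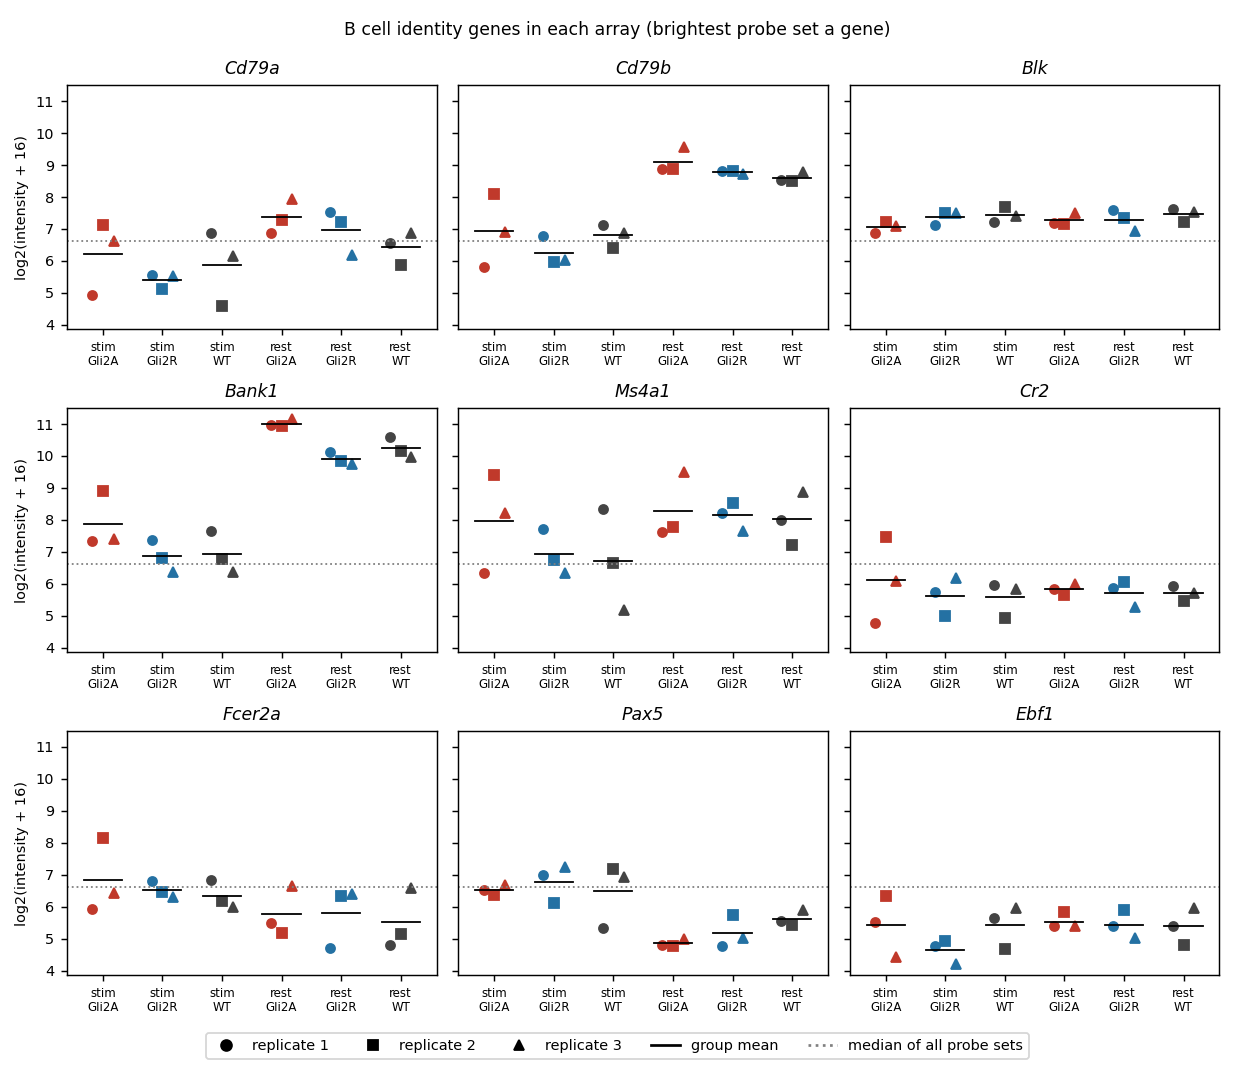
Level of each B cell identity gene in each of the 18 arrays, as log2(intensity + 16) of its brightest probe set, with a marker for each replicate, a line at each group mean and a dotted line at the median of all probe sets. Bank1 and Cd79b lie lower in all stimulated arrays than in any resting array, Pax5 is higher in most stimulated arrays, and Ms4a1 spreads from 5.17 to 9.49.

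The 3 surface receptors other than the antigen receptor gave no called difference with stimulation. Ms4a1 (CD20) read 6.32, 9.40 and 8.22 in stimulated Gli2A Tg arrays on its brighter probe set, against 7.62, 7.77 and 9.49 in resting Gli2A Tg arrays. It read 7.70, 6.74 and 6.35 in stimulated Gli2R Tg cells, against 8.23, 8.53 and 7.67 in resting Gli2R Tg cells. In WT cells it read 8.35, 6.65 and 5.17 after stimulation and 8.0, 7.22 and 8.86 at rest. The spread within a group was as wide as the gap between groups. The differences were -0.31 ± 0.82 in Gli2A Tg (adjusted p = 0.806), -1.21 ± 0.82 in Gli2R Tg (adjusted p = 0.274) and -1.31 ± 0.82 in WT cells (adjusted p = 0.236). Its other probe set followed the same arrays (r = 0.84 over 18 arrays, which share the libraries) and differed by 0.33 in Gli2A Tg, -0.12 in Gli2R Tg and -0.0014 in WT cells. In WT cells the 95% interval was -3.05 to 0.44 on the brighter probe set, so a fall of the size of Cd79b lies within it. On the other it was -1.47 to 1.47, but that probe set averaged only 5.88 in resting WT cells, under the median of all probe sets. From so low a level a fall of that size could hardly be seen, so the second interval cannot decide the question.

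Fcer2a (CD23) had 1 low probe set and a brighter one that was not low only through stimulated Gli2A Tg cells. The brighter averaged 6.83 there and from 5.52 to 6.52 in the other groups, under the median of all probe sets. The brighter read 5.92, 8.14 and 6.44 in stimulated Gli2A Tg, 6.80, 6.46 and 6.29 in stimulated Gli2R Tg and 6.83, 6.18 and 5.99 in stimulated WT arrays. At rest it read 5.49, 5.19 and 6.65 in Gli2A Tg, 4.69, 6.33 and 6.39 in Gli2R Tg and 4.81, 5.15 and 6.59 in WT arrays. Stimulated means were higher in each genotype, by 1.06 ± 0.61, 0.71 ± 0.61 and 0.82 ± 0.61 in Gli2A Tg, Gli2R Tg and WT cells, and none passed the threshold (adjusted p = 0.194, 0.398 and 0.326). The low probe set of Fcer2a had group means from 4.19 to 4.61 and differed the other way, by -0.05, -0.42 and -0.05 (adjusted p = 0.859, 0.0579 and 0.866). In Gli2R Tg cells its stimulated arrays all lay below its resting arrays, and the r between both probe sets was -0.34. Cr2 (CD21) was low throughout, with group means from 5.59 to 6.11 and single arrays from 4.77 to 7.47, the highest being stimulated Gli2A Tg replicate 2. Its stimulation differences were 0.28, -0.09 and -0.11 (SE 0.51 each) in Gli2A Tg, Gli2R Tg and WT cells.

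Of the transcription factors, Pax5 was higher after stimulation on 1 probe set and Ebf1 gave no call. Pax5 read 6.51, 6.38 and 6.67 in stimulated Gli2A Tg arrays on its brighter probe set, against 4.79, 4.77 and 4.99 in resting Gli2A Tg arrays. It read 7.0, 6.10 and 7.23 in stimulated Gli2R Tg cells, against 4.78, 5.74 and 5.02 in resting Gli2R Tg cells. In WT cells it read 5.35, 7.18 and 6.93 after stimulation and 5.54, 5.43 and 5.90 at rest. Stimulated and resting arrays were apart in both transgenic genotypes, and in WT cells stimulated replicate 1 lay below all resting arrays. The brighter probe set of Pax5 rose 3.19-fold in Gli2A Tg (log2 1.67 ± 0.40, adjusted p = 0.00335) and 3.03-fold for Gli2R Tg (1.60 ± 0.40, adjusted p = 0.00472). This probe set averaged above the median of all probe sets only in stimulated Gli2R Tg cells (6.78), against 6.52 in stimulated Gli2A Tg cells. Both folds depend on the offset, since the resting means, 4.85 for Gli2A Tg and 5.18 for Gli2R Tg, lie well under that median. With an offset of 1 they were 5.61 and 4.62, and with an offset of 64 they were 1.82 and 1.88, in Gli2A Tg and Gli2R Tg cells and with the call kept. In WT cells it differed by 0.86 ± 0.40 (adjusted p = 0.106), and by 1.43 ± 0.32 without stimulated WT replicate 1 (adjusted p = 0.00253). Without both Gli2A Tg arrays that stood apart, the Gli2A Tg difference was 1.81 ± 0.53 (adjusted p = 0.0168).

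The rise of Pax5 was seen on 1 of its 2 probe sets. The other was low, with group means from 4.83 to 5.76, and differed by -0.67 ± 0.38 in Gli2A Tg, -0.15 ± 0.38 in Gli2R Tg and 0.65 ± 0.38 in WT cells, with adjusted p = 0.181, 0.799 and 0.201. The r between the 2 was -0.09 over 18 arrays. With the mean of both, the Pax5 difference was 0.50 ± 0.30 in Gli2A Tg (adjusted p = 0.204) and 0.72 ± 0.30 in Gli2R Tg cells (adjusted p = 0.0645), so the call was lost in both. Ebf1 was low on all 5 probe sets, with group means from 4.30 to 5.69. Its stimulation differences ran from -0.80 to 0.33 over the 5 probe sets and 3 genotypes, and none was called. The r between Ebf1 probe sets ran from -0.27 to 0.72.

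**Figure D2:**
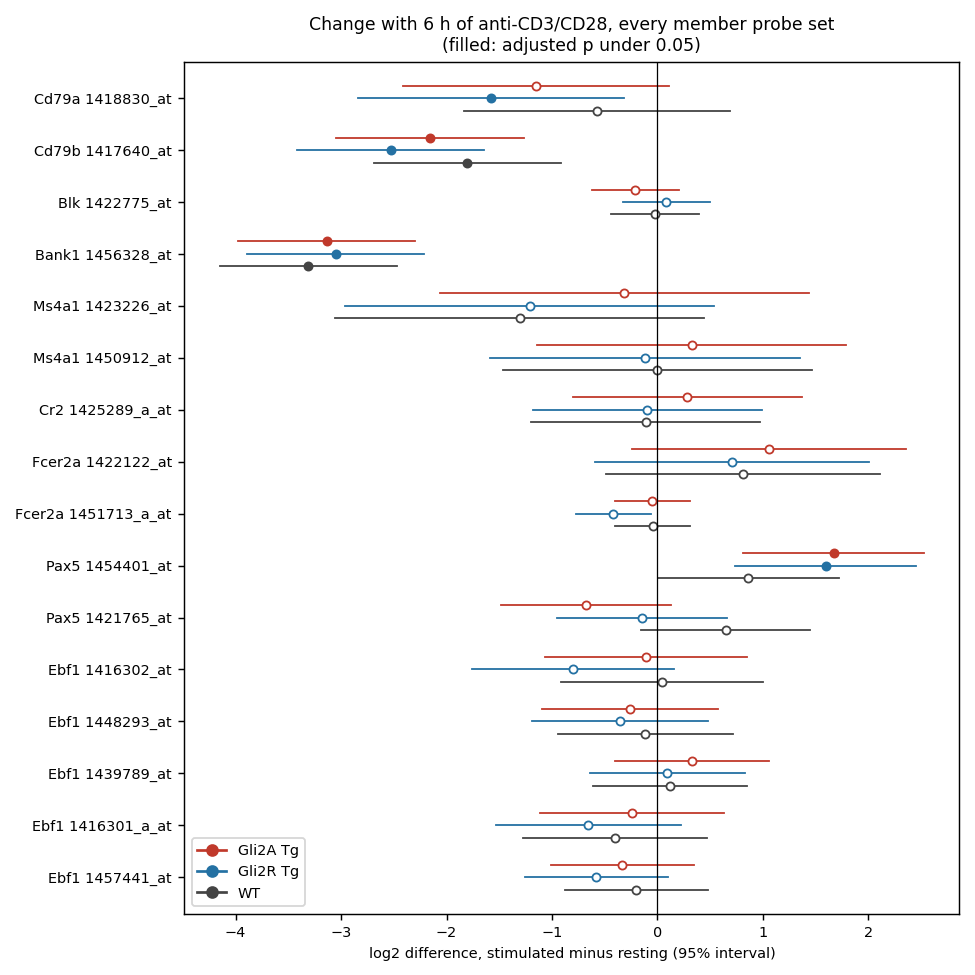
Log2 difference of stimulated minus resting cells for each of the 16 member probe sets, with its 95% interval, in Gli2A Tg, Gli2R Tg and WT cells. Filled points have an adjusted p under 0.05, and these are Bank1 and Cd79b to the left in 3 genotypes, Cd79a to the left in Gli2R Tg cells, and 1 Pax5 probe set to the right in Gli2A Tg and Gli2R Tg cells.

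Counted over probe sets, 3 of 16 were called in Gli2A Tg cells (1 higher, 2 lower), 4 in Gli2R Tg cells (1 higher, 3 lower) and 2 in WT cells (0 higher, 2 lower). Stimulation changed a large part of all probe sets, 40.4% in Gli2A Tg cells (20.6% higher, 19.8% lower), 39.7% in Gli2R Tg cells (19.9% higher, 19.8% lower) and 39.3% in WT cells (20.0% higher, 19.4% lower). Of the 16 members, 8 were low. The arrays of stimulated and resting cells did not overlap for 3, 7 and 2 member probe sets in Gli2A Tg, Gli2R Tg and WT cells, against 48.2%, 50.3% and 50.3% of all probe sets. The median difference of the 16 was -0.22, -0.39 and -0.08 in the same order, against 0.04, 0.02 and 0.03 for all probe sets.

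Between genotypes no member probe set was called, in resting or in stimulated cells. Bank1 gave the gap nearest to a call: it read 10.96, 10.93 and 11.15 in resting Gli2A Tg arrays, against 10.12, 9.85 and 9.75 in resting Gli2R Tg arrays. These groups were apart, by 1.11 ± 0.39 (95% interval 0.27 to 1.95), with an adjusted p of 0.171 in limma. Resting WT cells lay between them, with Gli2A Tg minus WT at 0.78 (-0.06 to 1.62, adjusted p = 0.554) and Gli2R Tg minus WT at -0.33 (-1.17 to 0.51, adjusted p = 0.878). After stimulation Bank1 averaged 7.88 ± 0.88 (SD, n = 3) in Gli2A Tg, 6.86 ± 0.50 in Gli2R Tg and 6.93 ± 0.66 in WT cells. Gli2A Tg minus Gli2R Tg was 1.02 ± 0.39 (adjusted p = 0.454) and Gli2A Tg minus WT was 0.95 ± 0.39 (adjusted p = 0.37), and without both Gli2A Tg arrays that stood apart these were 0.52 ± 0.35 and 0.44 ± 0.35.

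Across the 6 genotype comparisons, the count of called members was 0 of 16 in each. Of all probe sets, limma called 0.381% in resting Gli2A Tg against WT, 0.0200% in resting Gli2R Tg against WT and 1.78% in resting Gli2A Tg against Gli2R Tg cells. In stimulated cells it called 0.140%, 0.109% and 0.129% in the same order of pairs. At an unadjusted p under 0.05, limma gave 0, 0 and 1 member probe sets in resting cells, against 9.88%, 9.04% and 15.9% of all probe sets, and 2, 1 and 1 in stimulated cells, against 11.7%, 9.23% and 8.67%. Arrays did not overlap for 4, 0 and 2 members in resting cells, against 15.0%, 16.4% and 19.6% of all probe sets. In stimulated cells they did not overlap for 3, 1 and 2 members, against 6287, 6056 and 5405 of all 34945 probe sets, and of the 3 in Gli2A Tg against WT cells Blk and the low Pax5 probe set were lower and 1 Ebf1 probe set was higher. The 4 in resting Gli2A Tg against WT cells were Cd79a, Cd79b and Bank1, all higher, and the brighter Pax5 probe set, which was lower, and the names given here were picked after their values were seen. Cd79a differed there by 0.93 ± 0.59 (adjusted p = 0.669) and Cd79b by 0.50 ± 0.42 (adjusted p = 0.781), and Pax5 by -0.78 ± 0.40 (adjusted p = 0.566).

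**Figure D3:**
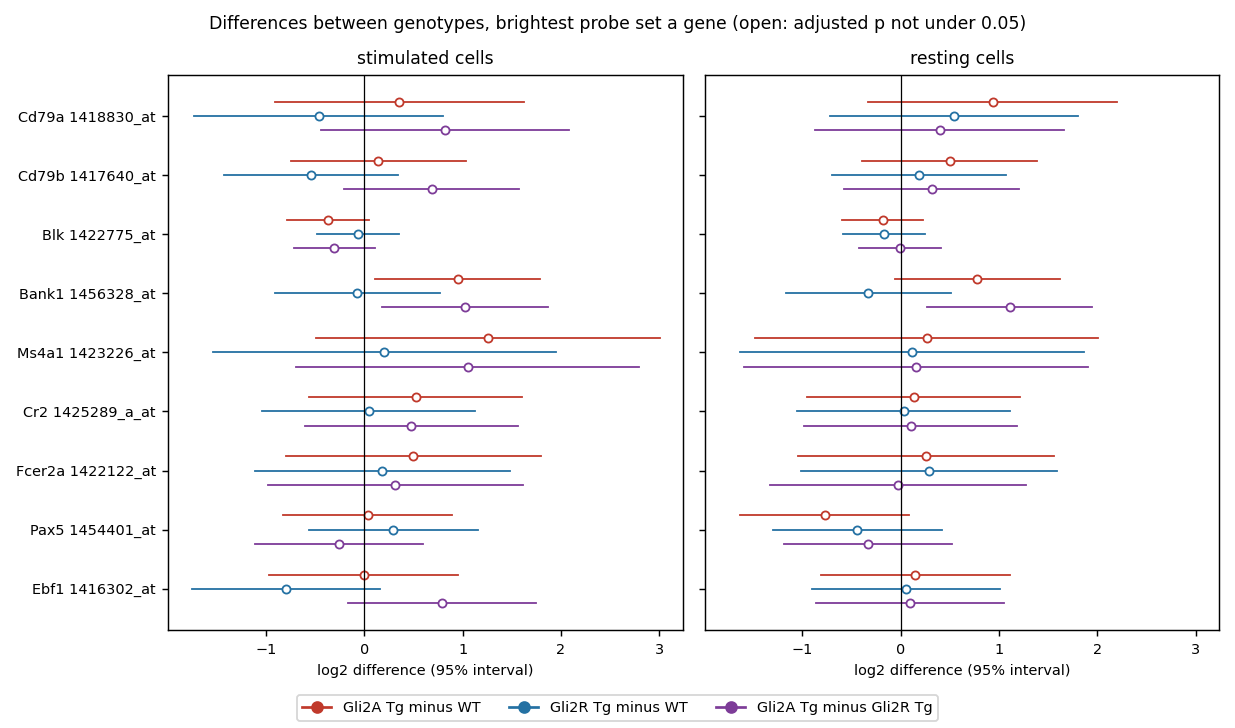
Log2 differences between genotypes in stimulated cells (left) and resting cells (right) for the brightest probe set of each of the 9 genes, with 95% intervals. All points are open, since none had an adjusted p under 0.05, and the intervals of Bank1 lie above 0 for Gli2A Tg minus Gli2R Tg in both conditions and for Gli2A Tg minus WT in stimulated cells.

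The stimulation effect itself was compared between genotypes, since a call in 1 genotype and not in another shows no difference. The count of called members was 0 of 16 for Gli2A Tg minus WT, Gli2R Tg minus WT and Gli2A Tg minus Gli2R Tg, where limma called 0.0172%, 0.0172% and 0.100% of all probe sets. At an unadjusted p under 0.05 limma gave 1, 0 and 0, against 9.64%, 8.35% and 9.85% of all probe sets. That 1 was the low Pax5 probe set, with an effect -1.32 ± 0.53 apart between Gli2A Tg and WT cells (adjusted p = 0.447). The Cd79a effect in Gli2R Tg minus that in WT cells was -1.01 ± 0.84 (95% interval -2.79 to 0.78, adjusted p = 0.782). For the brighter Pax5 probe set the effect was 0.81 ± 0.57 larger in Gli2A Tg (adjusted p = 0.696) and 0.73 ± 0.57 larger in Gli2R Tg cells (adjusted p = 0.769) than in WT cells. The Bank1 effect differed by 0.17 (-1.01 to 1.36) between Gli2A Tg and WT cells and by 0.26 (-0.93 to 1.45) between Gli2R Tg and WT cells.

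Replicates of a group spread widely for these genes. The pooled SD within groups was 1.11 for the brighter Ms4a1 probe set, at the 99.8th percentile of all probe sets, 0.82 for Fcer2a (98.9th) and 0.80 for Cd79a (98.5th), against 0.23 for Blk (25.3rd). The median over the 16 member probe sets was 0.54, against 0.36 over all, and 14 of the 16 lay above that median. The spread ran in the same arrays across genes. Stimulated Gli2A Tg replicate 2 was the highest of its group for 8 of 9 genes and resting Gli2A Tg replicate 3 for 8 of 9. Stimulated Gli2A Tg replicate 1, resting Gli2R Tg replicate 3 and resting WT replicate 2 were the lowest of their groups for 7 of 9 each. How often these arrays were highest or lowest over all probe sets was not counted. These counts are therefore not shown to be particular to the members. The part of RNA quality in the high values of stimulated Gli2A Tg replicate 2, the array with the beta-actin ratio of 3.0, was not tested.

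Within groups, the deviations of the 9 genes from their group means tended to share a sign: of 36 gene pairs, 30 had an r above 0 over the 18 arrays, with a median of 0.39 and a range from -0.49 to 0.84. Over the levels themselves the r of the 36 pairs had a median of 0.17. It ran from -0.86 for Bank1 with Pax5 to 0.95 for Cd79b with Bank1. Bank1 and Cd79b each part all stimulated from all resting arrays, while Pax5 overlaps between them in WT cells. All pairs share the same 18 libraries, and the share of r above 0 among pairs of other genes was not counted. A mean profile of the 9 genes, each centred on its own mean, ran from -0.78 to 0.89 in stimulated Gli2A Tg, from -0.71 to -0.24 in stimulated Gli2R Tg and from -0.66 to -0.01 in stimulated WT arrays. At rest it ran from 0.22 to 0.85 in Gli2A Tg, from -0.01 to 0.52 in Gli2R Tg and from -0.14 to 0.58 in WT arrays. Stimulated Gli2A Tg replicate 2 was above the highest resting array, and the stimulated Gli2R Tg and WT arrays lay below 0.

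Among 9550 other genes, those most like this profile over the 18 arrays were Galnt1 (r = 0.85), Trip4 (0.83), Tlcd2 (0.83), Prune1 (0.82), Fcmr (0.82) and Wdfy1 (0.81). Fcmr encodes the receptor for IgM on B cells, and its r was 0.78 without the 2 arrays farthest from the median of the profile, stimulated Gli2A Tg replicate 2 and resting Gli2A Tg replicate 3. Its Spearman rho was 0.92. Without the same 2 arrays the r was 0.81 for Galnt1, 0.84 for Trip4, 0.82 for Tlcd2, 0.71 for Prune1 and 0.75 for Wdfy1. The Spearman rho of these ran from 0.78 for Wdfy1 to 0.85 for Tlcd2. Over deviations from group means the most alike were Gins3 (r = 0.90), Gmeb2 (0.85), Rbmx (0.85), St3gal3 (0.83), Lipt1 (0.81) and Dck (0.81). Without the 2 farthest arrays, stimulated Gli2A Tg replicates 1 and 2, these r ran from 0.53 for St3gal3 to 0.77 for Gins3. Likeness in deviations did not always extend to the levels. Over the levels of the 18 arrays the r to the profile was -0.48 for Lipt1, -0.16 for Gmeb2 and 0.35 for Gins3. For the rest it ran from 0.61 for St3gal3 to 0.73 for Dck.

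Further genes of B cells were read from a list. Of 36 listed, 32 were measured, and in Gli2A Tg cells 20 were lower and 2 higher, in Gli2R Tg cells 17 lower and 0 higher, and in WT cells 17 lower and 2 higher. Their median differences were -0.98, -1.11 and -1.04 in that order, against 0.04, 0.02 and 0.03 for all probe sets, of which 19.8%, 19.8% and 19.4% were lower. Counts of this and the later lists take a gene's brightest probe set, while the shares are over all probe sets. Taking the brightest for every gene, limma called 7812, 7703 and 7584 of 18193 genes in either direction. With probe sets above the median level alone it called 11812 in WT cells, against 13749 over all 34945. Bright genes are therefore called more often than these shares. Ly86, which pairs with a Toll-like relative on B cells and myeloid cells, read 7.76, 8.58 and 7.20 in stimulated Gli2A Tg arrays, against 12.57, 12.62 and 12.79 in resting Gli2A Tg arrays. It differed by -4.81 in Gli2A Tg, -4.38 in Gli2R Tg and -4.84 in WT cells. Blnk, the adaptor that links the B cell receptor to its downstream enzymes, differed by -3.97, -3.19 and -3.52, Cd24a, a surface glycoprotein, by -1.99, -1.24 and -2.61, and Cd37, a tetraspanin, by -2.54, -2.58 and -2.24 in the same order, and all of these were called. Fcmr differed by -0.89, -1.03 and -1.59 with no call. Which cells of the preparations held the RNA of these listed genes was not tested.

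Genes of the list that bind or signal beside the member receptors were among those called. Cd22, an inhibitory co-receptor, fell by 1.73 in Gli2A Tg and by 1.46 in Gli2R Tg cells, and differed by -0.83 in WT cells (adjusted p = 0.0962). Btk, a kinase downstream of the receptor, fell by 3.19, 3.0 and 2.05 in Gli2A Tg, Gli2R Tg and WT cells. Ighm, the heavy chain of IgM, fell by 1.83, 1.50 and 1.30. Cxcr5, a chemokine receptor of B cells and follicular helper T cells, rose in Gli2A Tg (0.90) and WT cells (1.19) and differed by 0.03 in Gli2R Tg cells. Of the same list Cd40 rose in Gli2A Tg cells (1.07) and Cd83 in WT cells (0.88). Siglecg and Tnfrsf13c had no call with stimulation in any genotype. All genes named in this paragraph so far were picked after their values were seen. In comparisons of genotypes, Cd24a was higher in resting Gli2A Tg than in resting Gli2R Tg cells by 1.38 ± 0.32 (adjusted p = 0.0385) and Mef2c, a transcription factor, was higher in stimulated Gli2A Tg than in stimulated Gli2R Tg cells by 1.94 ± 0.27 (adjusted p = 0.012).

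Plasma cells, the antibody-secreting end of the lineage, were read from 8 markers, of which 6 were lower and 1 higher in Gli2A Tg, 6 lower and 1 higher in Gli2R Tg, and 4 lower and 1 higher in WT cells. Of all probe sets, 19.8%, 19.8% and 19.4% were lower and 20.6%, 19.9% and 20.0% higher in the same order. Mzb1, a chaperone of immunoglobulin assembly, differed by -3.27, -2.97 and -2.27, Jchain, which joins IgM and IgA units, by -2.27, -2.08 and -1.85, and Tnfrsf17, a survival receptor, by -1.87, -1.30 and -1.84. The 1 that rose was Irf4, by 5.75, 4.81 and 5.76, a factor that activated T cells also induce. Among 7 measured markers of B cell precursors, 4 were lower in each genotype. Among them, Vpreb1, a surrogate light chain gene, differed by -1.49, -1.48 and -1.94, and Il7r, which T cells also express, by -3.55, -3.52 and -3.33.

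Markers of other cell types moved with the same comparisons. Of 14 macrophage markers, 13 were lower in each genotype after stimulation, with median differences of -4.62, -5.24 and -5.44 in Gli2A Tg, Gli2R Tg and WT cells. Of all probe sets, 19.8%, 19.8% and 19.4% were lower in the same order. The summed intensity of the macrophage markers ran from 2230 to 6240 in stimulated Gli2A Tg, from 1620 to 1950 in stimulated Gli2R Tg and from 1830 to 2560 in stimulated WT arrays. At rest it ran from 125000 to 135000 in Gli2A Tg, from 54000 to 71100 in Gli2R Tg and from 73500 to 114000 in WT arrays. The members' own sum ran from 527 to 2190, 572 to 847 and 639 to 1060 in stimulated Gli2A Tg, Gli2R Tg and WT arrays, and from 2950 to 4280, 1730 to 2250 and 1850 to 2510 at rest. For both sums the resting Gli2A Tg arrays lay above all resting WT and Gli2R Tg arrays. For the members this rests on Bank1, which alone gave 1940 to 2260 in resting Gli2A Tg, 843 to 1100 in resting Gli2R Tg and 988 to 1540 in resting WT arrays, while the sum of the others overlapped, at 969 to 2010, 882 to 1260 and 738 to 1360. The part of macrophages in the member values was not tested.

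CD4 T cell markers were called as well, 5 of 11 lower and 1 higher in Gli2A Tg, 8 lower in Gli2R Tg and 7 lower in WT cells, with Cd3e at -2.95, -2.69 and -2.73 on the log2 scale. Of 5 erythroid markers 4, 2 and 4 were lower, of 8 dendritic markers 4, 3 and 5, of 7 CD8 T and NK markers 5, 4 and 4, and of 7 markers of follicular and stromal cells 1 each, in the same order. Markers higher with stimulation were 0 erythroid, 0 follicular and stromal, 2 CD8 T and NK in each genotype, and 1 dendritic in Gli2R Tg cells. Of all probe sets, 19.8%, 19.8% and 19.4% were lower and 20.6%, 19.9% and 20.0% higher in Gli2A Tg, Gli2R Tg and WT cells. In resting Gli2A Tg against resting Gli2R Tg cells, the erythroid genes Alas2 and Slc4a1 and the macrophage gene Adgre1 were higher and Cd5, a T cell surface protein, was lower, while no member was called. Summed erythroid intensity ran from 18300 to 45500 in resting Gli2A Tg, from 2180 to 5330 in resting Gli2R Tg and from 12200 to 18900 in resting WT arrays. The part of these cell types in the member differences was not tested.

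**Figure D4:**
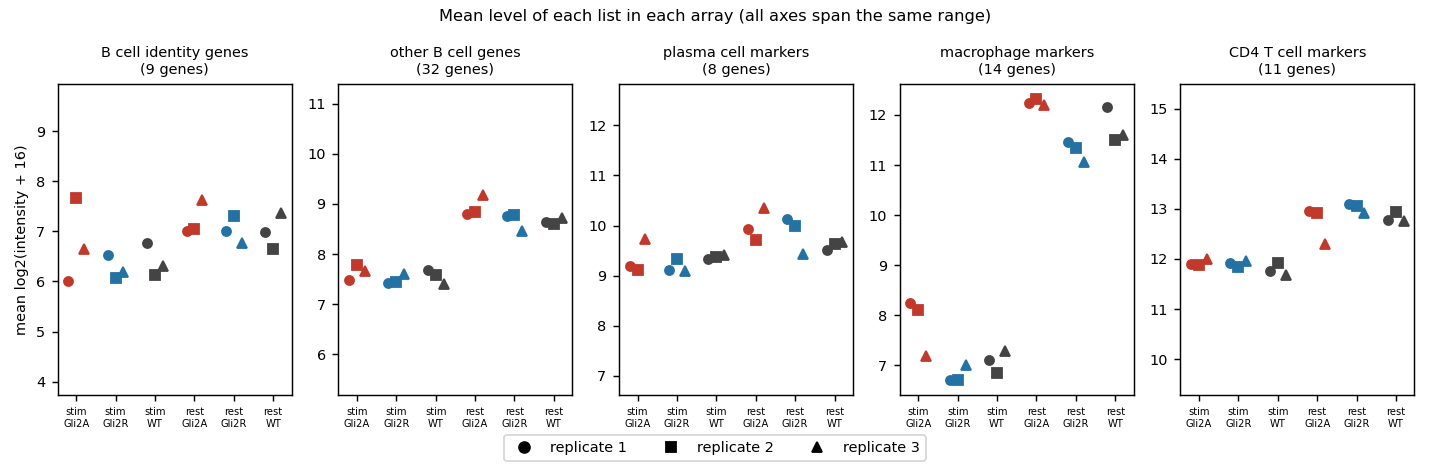
Mean log2(intensity + 16) of each gene list in each of the 18 arrays, by group, with a marker for each replicate, on axes that span the same range. The B cell identity genes overlap between stimulated and resting arrays, with stimulated Gli2A Tg replicate 2 the highest of the 18, while the other B cell genes and the macrophage markers lie lower in all stimulated arrays than in any resting array.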

How the data were processed

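Gene expression of 18 samples in 6 groups of 3 was read from the deposited table of 45101 probe sets. Per the submitters' processing notes these intensity values came from the affy package (version not stated there), and in the values each array has a 2% trimmed mean of 500, so the authors had scaled the arrays. Array medians lay between 55.5 and 76.3. Probe sets with several symbols (932) or none (9160) and 64 controls were left out, and 34741 of the 34945 kept had an Entrez number in the reference gene table, which renamed 0.

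Here log2(intensity + 16) was taken and quantile normalized, and limma 3.58.1 (lmFit and eBayes, R 4.3.3; tested on simulated data) estimated the 6 group means from all arrays. A probe set was called at a Benjamini-Hochberg adjusted p under 0.05 over all 34945, in 12 comparisons, and all adjusted p-values come from limma. ± gives the SE of a difference or, where written, the SD. The labels do not say that replicates came from separate mice, so p-values measure only the spread between these samples, and 3 arrays a group limit the precision. Members and lists were chosen with earlier results of these data known. All member probe sets are named, with a gene's brightest probe set standing for it in list counts. From each other list come up to 4 genes with the largest WT stimulation difference and any called between genotypes; not all of these are printed. Likeness was measured as Pearson r to the mean member profile among genes above the median level, with 6 genes named for each measure. Same-numbered replicates did not deviate together (r from -0.0577 to 0.104 between groups). This cannot show whether the numbers pair samples, and no pairing was assumed. Listed genes with no probe set counted as measured were not analysed here. Alternatives covered scaling, offset, filter, variance model, probe set choice, replicate block, arrays in the fit and leaving out arrays.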

Additional observations from a re-analysis of the deposited data

How the results depend on the processing

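Of 153 alternative values for the 9 called member differences, 144 kept direction and call and 9 lost the call, all for Cd79a in Gli2R Tg cells or Pax5 in both transgenic genotypes. Bank1 and Cd79b kept their calls under every setting tried, with adjusted p of at most 0.00148 and 0.0202. Of 3199 values for uncalled differences, 5 passed the threshold, 286 changed sign without a call, and 0 reversed a call. The 5 were Blk in Gli2A Tg cells with the deposited scaling (-0.58, adjusted p = 0.0289), the low Fcer2a probe set in Gli2R Tg cells under 3 settings (adjusted p = 0.0189, 0.0355 and 0.0392), and Pax5 in WT cells without stimulated replicate 1. With probe sets above the median level alone, 2 members were called in Gli2R Tg cells in place of 4, since Cd79a and Pax5 were not tested there.

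Leaving out 1 array at a time gave 3 to 3 called members in Gli2A Tg, 3 to 5 in Gli2R Tg and 2 to 3 in WT cells with stimulation, and 0 to 0 in each comparison of genotypes and of stimulation effects. With the replicate number as a block, 3, 3 and 2 were called, and Cd79a in Gli2R Tg cells had an adjusted p of 0.0604 in limma. The block changed no other member call, and whether the numbers pair the samples is not known. Without both Gli2A Tg arrays that stood apart, a choice made after the data were seen, 3 members were called with stimulation in Gli2A Tg cells (1 higher, 2 lower) and 0 between genotypes.

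Median centring moved the median difference of all probe sets to 0.15 in Gli2A Tg, 0.07 in Gli2R Tg and 0.16 in WT cells, and no called member changed direction. In WT cells 7630 probe sets were then higher and 6539 lower, against 6985 and 6764 in the reported fit and 5786 and 8229 with the deposited scaling alone. Low signal limits Ebf1, Cr2, both probe sets of Fcer2a and Pax5, the less bright probe set of Ms4a1, and Cd79a. Cd79a averaged under the median of all probe sets in the stimulated groups (5.40 to 6.22) and in resting WT cells (6.44). The less bright Ms4a1 probe set averaged above that median only in stimulated Gli2A Tg cells (6.83). The brighter Fcer2a probe set averaged above the median of all probe sets only in stimulated Gli2A Tg cells (6.83). The brighter Pax5 probe set did so only in stimulated Gli2R Tg cells (6.78). The 3 arrays a group limit Ms4a1, Fcer2a and Cd79a, whose replicates spread widely.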
